A study of Mus musculus with 8 samples.

Results

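Interferon signalling and response genes were followed in B-1a cells, the self-renewing CD5+ B cells of the body cavities, after loss of PTIP. The set was written as 42 gene symbols: interferon receptors, the factors that carry their signal, and genes known to be induced by interferon. A gene was included where the array annotation gave it a probe set with exactly 1 symbol, and the brightest of a gene's probe sets, by its mean over the 8 arrays, stood for it. This left 37 of the 42, among 22180 genes tested. Oas1a, Ifi44, Ifi47, Gbp2 and Dtx3l were not analysed here.

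The cells came from mice 5 weeks of age and were sorted from a wash of the peritoneal cavity. KO mice were PTIPflox/flox and carried a heterozygous knock-in Cre allele, so that Cre acts in B lineage cells on the floxed gene for PTIP, Paxip1. Control mice were PTIP+/+ with the same Cre allele, so both groups share the knock-in. In all, 29 KO and 22 control mice were divided into 4 pools per genotype, with 1 array per pool. Values are log2 RMA values. A difference is KO minus control with its standard error (SE) from limma, and a gene is called where its Benjamini-Hochberg adjusted p over all 22180 genes was under 0.05. Paxip1 lay between 3.58 and 4.79 in the KO pools and between 6.87 and 7.16 in the control pools, a 6.36-fold difference (limma, adjusted p = 9.96e-05; exact two-sided permutation p = 0.0286, the smallest that 4 against 4 allows). B cell genes were present in both groups, with Cd79a at 10.8 in each, and Cd5 stood at 7.48 in KO and 7.44 in control. Of 15 B cell and B-1a markers, 11 had negative and 4 positive differences. The 3 called, Itgam, Zbtb32 and Cd22, all fell (20%, beside 3.59% of all genes called). KO and control values did not overlap for 6 of the 15, 5 lower and 1 higher (40%, beside 10.5% of all genes). The mean of the 15 per pool ran from 8.79 to 8.90 in KO and from 9.08 to 9.16 in control.

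The pools also carried RNA of T and NK cell genes. Of 16 T cell markers, 15 had positive differences and 0 were called (11 had an unadjusted p under 0.05, as had 15.3% of all genes). Their mean per pool ran from 5.28 to 7.16 in KO and from 4.74 to 5.62 in control. Of 13 NK markers all had positive differences and 2 were called (15.4%, beside 3.59% of all genes). Their pool means were 4.40 to 5.64 in KO and 3.71 to 4.54 in control. KO pools 1 and 2 held the highest T cell marker means, at 7.16 and 6.95. The means of the macrophage, dendritic cell, granulocyte and red cell marker lists differed by 0.05 or less between the groups, but their genes went both ways. Cd68 (-0.56; limma, adjusted p = 0.0275) and Ccr9 (-0.37, adjusted p = 0.0296) were called lower, and Adgre1 differed by -0.76 and Ccr2 by 1.07 without a call. Control pool 1 had the highest macrophage marker mean, at 5.41 beside 4.46 to 4.86 in the other control pools, with Lyz1 at 8.00 beside 4.01 to 5.40, and the mast cell gene Cpa3 was also highest there. The part of such RNA in the results was not tested beyond the fits below that add the T cell marker mean or leave out KO pools 1 and 2. No value in the table is at 0, the lowest being 1.37, so no marker can be declared absent. In sorted bulk samples a change in the share of a cell type cannot be told apart from a change of RNA per cell.

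Type I interferons signal through IFNAR1 and IFNAR2 and the kinases JAK1 and TYK2. These activate a complex holding STAT2 and IRF9 that binds the interferon-stimulated response element (ISRE). Type II interferon, interferon gamma, signals through IFNGR1 and IFNGR2 with JAK1 and JAK2, and the signal reaches genes through the gamma-activated site (GAS). The induced genes block viral replication, present antigen and feed back on the pathway, and many are held at a low basal level in resting lymphocytes.

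The 250 bases before the start of 4 genes are shown, 3 with the element through which many of these genes are induced and 1 without: Isg15 and Ifit1 are classic interferon targets, and Stat2 and Ifngr1, the 1 without, are called members. Sequences are those of RefSeq on GRCm38.p6, given on the strand of the gene. Capitals mark matches to the ISRE core on either strand: GAAA, 2 bases of any kind and GAAA again, or TTTC, 2 bases and TTTC when read from the other strand. Isg15 lies at chr4:156200819-156201068 (minus strand), Ifit1 at chr19:34640639-34640888, Stat2 at chr10:128270248-128270497 and Ifngr1 at chr10:19591699-19591948 (plus strand).
Isg15: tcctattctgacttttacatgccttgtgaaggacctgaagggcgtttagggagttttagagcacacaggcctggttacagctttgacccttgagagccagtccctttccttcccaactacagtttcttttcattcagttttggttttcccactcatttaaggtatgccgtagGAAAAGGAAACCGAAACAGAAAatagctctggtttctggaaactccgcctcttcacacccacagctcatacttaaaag
Ifit1: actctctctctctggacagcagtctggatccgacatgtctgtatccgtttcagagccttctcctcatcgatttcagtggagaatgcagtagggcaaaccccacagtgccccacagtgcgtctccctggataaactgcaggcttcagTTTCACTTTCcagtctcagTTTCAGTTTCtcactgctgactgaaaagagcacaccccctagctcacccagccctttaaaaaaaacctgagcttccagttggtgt
Stat2: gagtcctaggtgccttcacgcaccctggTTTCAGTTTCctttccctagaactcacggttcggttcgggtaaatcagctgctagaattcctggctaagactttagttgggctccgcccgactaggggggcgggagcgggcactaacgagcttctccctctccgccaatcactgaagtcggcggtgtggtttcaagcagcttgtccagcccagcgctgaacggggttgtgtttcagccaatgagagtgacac
Ifngr1: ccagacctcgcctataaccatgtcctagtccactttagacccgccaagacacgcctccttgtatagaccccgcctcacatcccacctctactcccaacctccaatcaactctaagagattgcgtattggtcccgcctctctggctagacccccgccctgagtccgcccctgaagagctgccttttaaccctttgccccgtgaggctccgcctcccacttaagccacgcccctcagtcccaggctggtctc

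Isg15 held 3 overlapping matches, the first starting 78 bases before the gene's start, and Ifit1 held 2. Stat2 held 1, starting 222 bases before its start, and Ifngr1 held none. The promoter table had windows, from 250 bases before to 50 after a start, for 29 of the 37 genes. Of these, 12 (41.4%) held an ISRE core in at least 1 window, against 3.99% of all 27025 genes in the table. The GAS core (TTC, 3 bases of any kind, GAA), which reads the same on both strands, was found in 9 of the 29 (31.0%), against 9.55% of all genes. The 12 genes with an ISRE core spanned differences of -0.62 to 0.39 with a median of 0.03, and Stat2 was the 1 called among them. The 17 without spanned -0.64 to 0.60 with a median of 0.09, and 2 of them, Ifngr1 and Sp110, were called. Of all genes tested on the arrays 3.59% were called. Whether calls differ between genes with and without the core was not tested, and these counts are too small to show it. A match is a stretch of letters and not evidence of binding.

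The interferon genes did not shift together. Rtp4 and Ifngr1 rose in KO, Stat2 and Sp110 fell, and 33 of the 37 were not called. Of all genes tested, 1.49% were called higher and 2.1% lower, 3.59% in all, against 4 of 37 members (10.8%). The other pathway genes described below stood at 10.2%. Of the 37, only Ifit2, Mx1, Mx2 and Rsad2 had a mean under the median of all genes, so the members are brighter than the genes tested. The share over all genes is thus not a like background, here or for the lists below. With only genes above the median mean tested, 1017 genes were called in place of 797, although fewer were tested. In that fit 4 members rose and 3 fell, so calls grew among the members and among all genes alike. Differences of the 37 ran from -0.64 to 1.16, with a median of 0.08 beside 0.02 over all genes, and 23 were positive. Of the 33 without a call, 28 differed by less than 0.3, and their 95% intervals lay between -0.83 and 0.82. On this scale a 2-fold change was thus outside the interval of each of the 33. For Ifit2, Mx1, Mx2 and Rsad2, with means under 4 in both groups, that does not bound the change in RNA. Values this low may change little on the RMA scale. KO and control values did not overlap for 9 of the 37 (24.3%), 5 higher and 4 lower, beside 10.5% of all genes (5.41% higher and 5.09% lower).

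**Figure D1:**
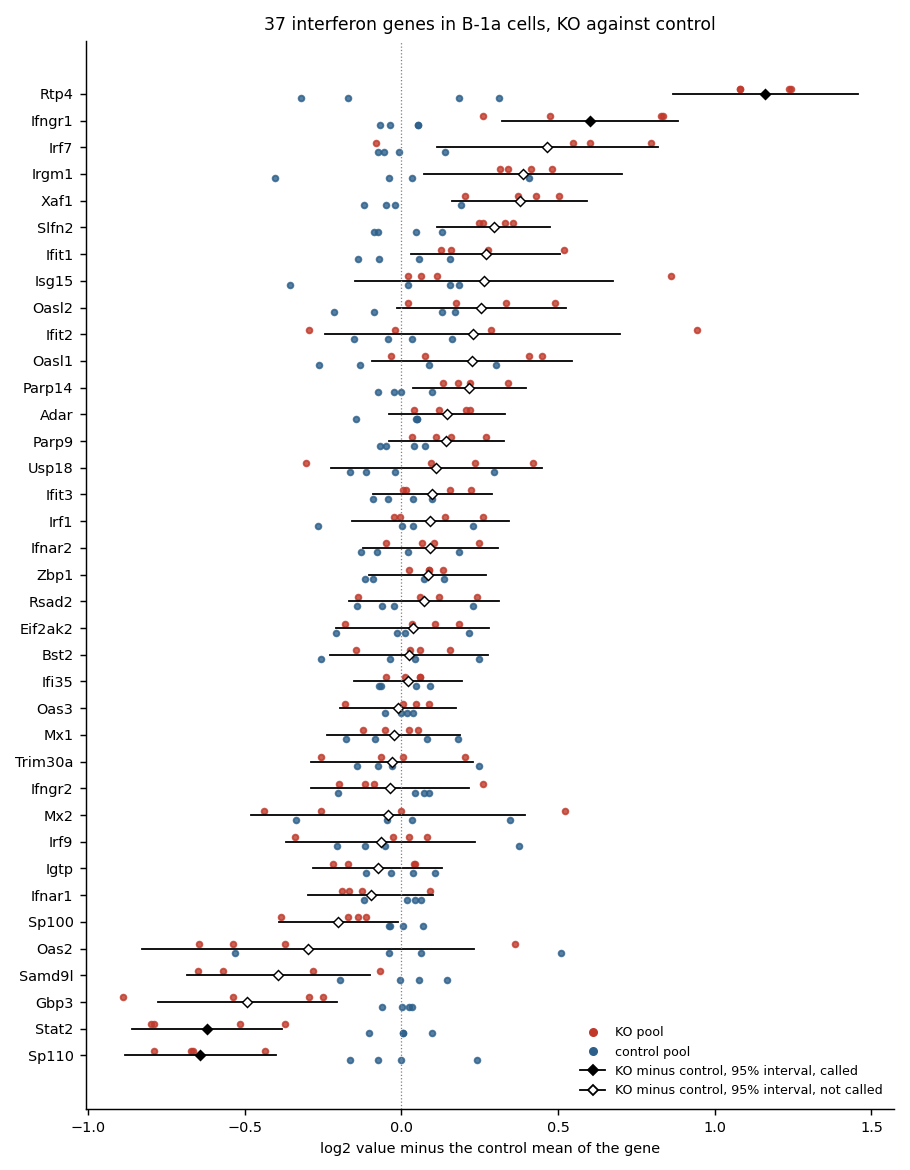
The log2 value of each pool minus the gene's control mean is plotted for the 37 interferon genes, ordered by their difference, with KO pools in red and control pools in blue. Diamonds are KO minus control with its 95% interval, filled where called: Rtp4 and Ifngr1 lie to the right, Stat2 and Sp110 to the left, and most others straddle 0.

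These counts were recomputed with the T cell marker signal in view. With the T cell marker mean per pool added to the fit (the T-adjusted fit), 1 member was called higher (Rtp4) and 0 lower. Without KO pools 1 and 2, 2 were called higher (Rtp4 and Irf7) and 0 lower. These fits called 297 and 320 genes overall in place of 797, and the differences of Stat2 and Sp110 moved little in them, as given below. Leaving out 1 pool gave 1 or 2 rises and 2 or 3 falls.

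Among the receptors, only Ifngr1, the ligand-binding chain of the interferon gamma receptor, was called. Its KO pools 1 to 4 stood at 8.69, 8.70, 8.12 and 8.34, and its control pools at 7.83, 7.91, 7.91 and 7.79. All KO pools lay above all control pools, and pools 1 and 2 were the highest of them. The rise was 0.60 (SE 0.13), or 1.52-fold (limma, adjusted p = 0.0268). KO pools 1 and 2 are those with the most T cell marker signal. In the T-adjusted fit the difference was 0.32 (adjusted p = 0.265), and without these pools it was 0.37 (adjusted p = 0.173). The omission of KO pool 1, of KO pool 2 or of any single control pool also ended the call (adjusted p from 0.0605 to 0.0780), and all its alternatives kept the sign.

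The other 3 receptor chains stayed within 0.1 of control. Ifngr2, the signalling chain that pairs with Ifngr1, stood at 8.11 ± 0.20 in KO and 8.15 ± 0.14 in control (SD, n = 4 pools each). Ifnar1 stood at 7.82 ± 0.13 and 7.92 ± 0.08, and Ifnar2 at 8.88 ± 0.12 and 8.79 ± 0.14. Their 95% intervals ran from -0.30 to 0.31, and limma called none (adjusted p from 0.688 to 0.933).

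**Figure D2:**
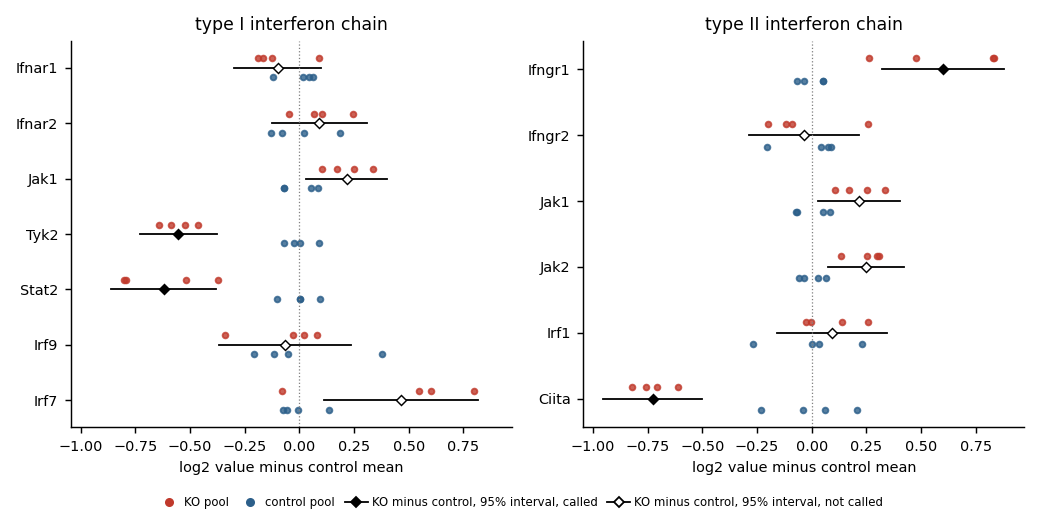
Genes of the type I chain (left) and the type II chain (right) are plotted from receptor to nucleus as log2 values minus the control mean, KO pools in red and control pools in blue, with KO minus control and its 95% interval. Tyk2 and Stat2 are the called genes on the left, at -0.55 and -0.62, and Ifngr1 and Ciita those on the right, at 0.60 and -0.73.

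Downstream of the type I receptor, Stat2 fell. STAT2 is the subunit that gives the complex with IRF9 its transactivation domain. The KO pools stood at 6.08, 6.37, 6.51 and 6.09 and the control pools at 6.98, 6.89, 6.89 and 6.78. The groups did not overlap, and KO pools 1 and 4 were the lowest. KO was 1.54-fold lower, a difference of -0.62 (SE 0.11; limma, adjusted p = 0.01002). It was -0.56 in the T-adjusted fit (adjusted p = 0.125) and -0.58 without KO pools 1 and 2 (adjusted p = 0.0832), so that the call ended in both fits while the size stayed. It held when any 1 pool was left out.

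Tyk2, the kinase bound to IFNAR1, fell alongside Stat2. It was not among the 37 but in a list of JAK kinases, STATs and interferon regulatory factors. Its KO pools lay between 6.49 and 6.66 and its control pools between 7.06 and 7.22. The fall was 0.55 (SE 0.08; limma, adjusted p = 0.00317). It was called in all 22 alternatives, with differences from -0.58 to -0.52 and adjusted p of at most 0.0403.

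The partners of Stat2 and Tyk2 showed no such fall. Irf9, the DNA-binding partner in the complex, stood at 6.55 ± 0.19 in KO and 6.62 ± 0.26 in control, a difference of -0.07 (95% interval -0.37 to 0.24; limma, adjusted p = 0.890). Jak1, shared by both receptor types, differed by 0.22 (SE 0.08) and Jak2, the kinase of IFNGR2, by 0.25 (SE 0.08). Neither was called (adjusted p = 0.243 and 0.134), although KO pools lay above control pools for both, and Jak2 was called with an intensity trend and robust prior (adjusted p = 0.0308). Stat3, which serves several cytokines, differed by -0.12 (SE 0.09, adjusted p = 0.564).

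The regulatory factors that interferon induces, Irf7 and Irf1, went without a call. The first, which amplifies type I interferon production, was uneven in KO, with pools at 4.87, 5.74, 5.49 and 5.55 against 4.87, 5.08, 4.89 and 4.94 in control. KO pool 1 sat at the control level, and the other KO pools lay above every control pool. Irf7 differed by 0.47 (SE 0.16; limma, adjusted p = 0.177), and by 0.65 without KO pool 1 (adjusted p = 0.00924). Irf1, an early target of interferon gamma, stood at 6.26 ± 0.13 in KO and 6.17 ± 0.20 in control.

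**Figure D3:**
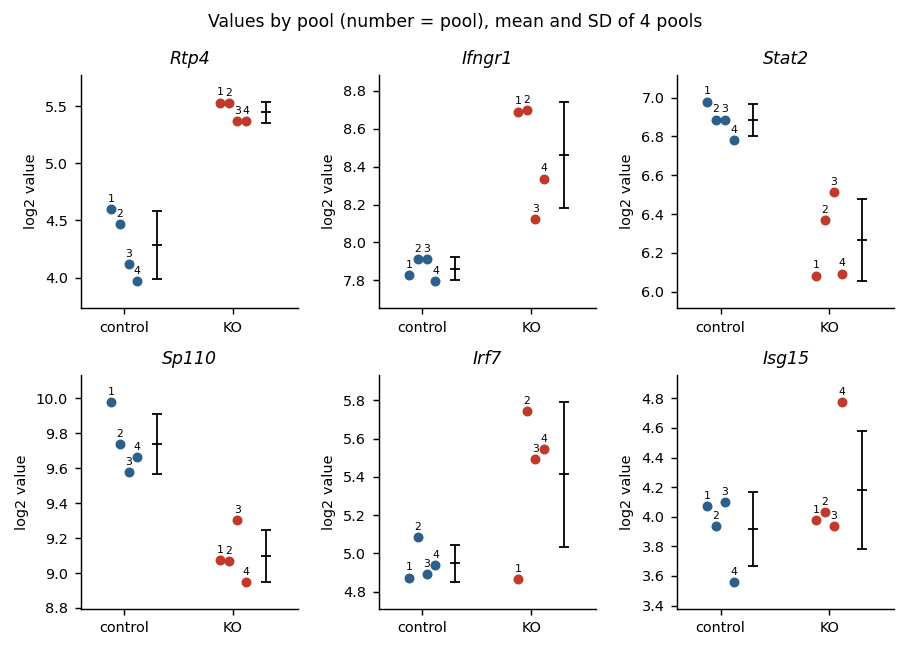
Log2 values of 6 interferon genes are plotted by pool, control in blue and KO in red, each point numbered by pool, with the mean and SD of 4 pools beside them. The groups are apart for Rtp4, Ifngr1, Stat2 and Sp110, KO pool 1 of Irf7 lies with the controls at 4.87, and KO pool 4 of Isg15 stands alone at 4.78.

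Rtp4, a receptor-transporter family gene induced by type I interferon, had the largest difference of the 37. Its KO pools stood at 5.53, 5.53, 5.37 and 5.37 and its control pools at 4.60, 4.47, 4.12 and 3.97. The KO pools were close to each other, and the lowest was above the highest control pool. The rise was 1.16 (SE 0.13), or 2.24-fold (limma, adjusted p = 0.000856). It was called in all 22 alternatives (adjusted p up to 0.0346). Within each group, pools 1 and 2 were the highest, as they were in T cell marker mean. In the T-adjusted fit the rise was 0.94 (adjusted p = 0.0164), and it was 1.08 without KO pools 1 and 2 (adjusted p = 0.0244).

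The other antiviral effectors measured beside Rtp4 went without a call: 11 genes, of which Xaf1, Slfn2 and Samd9l differed most. Xaf1, an interferon-induced antagonist of the apoptosis inhibitor XIAP, stood at 7.57 ± 0.13 in KO and 7.19 ± 0.13 in control, with no overlap (0.38, SE 0.10; limma, adjusted p = 0.0642). Slfn2, a schlafen gene needed for lymphocyte quiescence, was bright in both groups, at 10.6 ± 0.05 and 10.3 ± 0.10, also with no overlap (0.29, SE 0.08; adjusted p = 0.0862). Samd9l, an antiviral growth restrictor, differed by -0.39 (SE 0.13; adjusted p = 0.163). Xaf1 and Slfn2 were called in 4 and 3 of their 22 alternatives, among them the test of genes above the median mean and the intensity trend with a robust prior.

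The IFIT genes, whose proteins bind viral RNA or arrest its translation, gave small differences without a call. Ifit1 stood at 4.78, 4.39, 4.54 and 4.42 in the KO pools and at 4.42, 4.19, 4.32 and 4.12 in the control pools, with overlap (0.27, SE 0.11; limma, adjusted p = 0.255). Ifit3 differed by 0.10. Ifit2 was dim, with means of 3.61 in KO and 3.38 in control, and differed by 0.23. Its KO pool 1 stood at 4.32 and the others at 3.67, 3.36 and 3.09. The sign of Ifit2 turned in the T-adjusted fit (-0.23), without KO pools 1 and 2 (-0.16) and without KO pool 1 alone (-0.011). The GTPases Mx1 and Mx2 and the radical SAM enzyme Rsad2 (viperin) were dim, with means between 2.85 and 3.43 in both groups and differences of -0.02, -0.04 and 0.07. Values this low may change little on the RMA scale, so a difference there may be understated, which was not tested. Bst2 (tetherin), which holds budding virions at the cell surface, differed by 0.02 and Ifi35 by 0.02. A second, dimmer Ifi35 probe set differed by -0.26.

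Members of the ISG15 conjugation system went uncalled. Isg15, the ubiquitin-like modifier, stood at 3.98, 4.03, 3.94 and 4.78 in the KO pools and at 4.07, 3.94, 4.10 and 3.56 in the control pools. KO pool 4 was high and control pool 4 low, and the other pools lay within 0.2 of each other (0.26, SE 0.19; limma, adjusted p = 0.571). Usp18, which removes ISG15 and blocks IFNAR2 signalling, differed by 0.11 (SE 0.15). From the further lists, and chosen after their values were seen, Uba7, which activates ISG15, differed by -0.29 with no overlap between groups (SE 0.09; limma, adjusted p = 0.121), and Herc6, an ISG15 ligase of the mouse, by 0.06. The ADP-ribosyltransferases Parp9 and Parp14 differed by 0.14 and 0.22, the latter with no overlap between groups (adjusted p = 0.224), and the ubiquitin ligase Trim30a by -0.03.

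Sensors of nucleic acid and their effectors were also uncalled. The oligoadenylate synthetases make the second messenger that activates RNase L. Oasl2 differed by 0.26, Oasl1 by 0.23, Oas3 by -0.01 and Oas2 by -0.30 (SE 0.24), with overlap in each. Zbp1, a sensor of Z-form nucleic acid, stood at 6.99 ± 0.04 in KO and 6.91 ± 0.12 in control. Adar, which edits double-stranded RNA, differed by 0.15, and Eif2ak2 (PKR), the kinase that stops translation on sensing it, by 0.04.

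Sp110, a nuclear body protein of the SP100 family, was the other called fall. Its KO pools stood at 9.07, 9.07, 9.30 and 8.95 and its control pools at 9.98, 9.74, 9.58 and 9.66, without overlap. The fall was 0.64 (SE 0.11), or 1.56-fold (limma, adjusted p = 0.00857). It was -0.63 in the T-adjusted fit (adjusted p = 0.0888) and -0.61 without KO pools 1 and 2 (adjusted p = 0.0981), and the call held when any 1 pool was left out.

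The probe sets of Sp100 and Sp110 all had negative differences. The other probe sets of Sp110 differed by -0.45 and -0.87. Sp100 itself, the scaffold of these nuclear bodies, stood at 9.43 ± 0.12 in KO and 9.63 ± 0.05 in control by its brightest probe set (-0.20, SE 0.09; limma, adjusted p = 0.288), with no overlap. Its other probe sets differed by -0.87, -0.30 and -0.46, and the first of these passed when all probe sets were tested (adjusted p = 0.0364). These genes have close paralogs in the mouse, which the probes may not separate, so that the probe sets may not be independent.

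The interferon-inducible GTPases, which attack the vacuoles of intracellular microbes, gave no call among the 3 measured in the set. Gbp3 had its KO pools at 7.22, 7.58, 7.86 and 7.82 and its control pools between 8.05 and 8.15. The groups did not overlap and KO pool 1 was the lowest (-0.49, SE 0.13; limma, adjusted p = 0.0682). The difference shrank to -0.22 in the T-adjusted fit and -0.27 without KO pools 1 and 2. Gbp3 was called in 5 of its 22 alternatives, among them the test of genes above the median mean and the intensity trend with a robust prior. Irgm1, a regulator of the GTPases on vacuoles, differed by 0.39 (SE 0.14, adjusted p = 0.216), and Igtp (Irgm3) by -0.08.

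Of 10 further GTPases, 3 rose and 0 fell (30% called, beside 3.59% of all genes), with a median of 0.24. Gbp11 rose by 0.87 (SE 0.16; limma, adjusted p = 0.0121), Gbp4 by 0.65 (SE 0.15, adjusted p = 0.0437) and Gbp9 by 0.64 (SE 0.14, adjusted p = 0.0290). Gbp11 was dim, at 3.01 ± 0.35 in KO and 2.14 ± 0.15 in control, both under every array's median (3.68 to 3.74), so that it is not shown to be above background and the size of its rise is uncertain. The call of Gbp4 ended on omission of each pool except control pool 4 (highest adjusted p of its alternatives 0.192), and that of Gbp9 on omission of each pool numbered 1, 2 or 3 (highest 0.234) and with the replicate block (adjusted p = 0.0778). Without KO pools 1 and 2 none of the 3 was called, and in the T-adjusted fit Gbp4 alone was, at 0.88 (adjusted p = 0.0473). Gbp5, Gbp7, Gbp10 and Irgm2 stayed within 0.1 of control. GBP genes are close paralogs in clusters, and shared probe sequence may blur them.

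**Figure D4:**
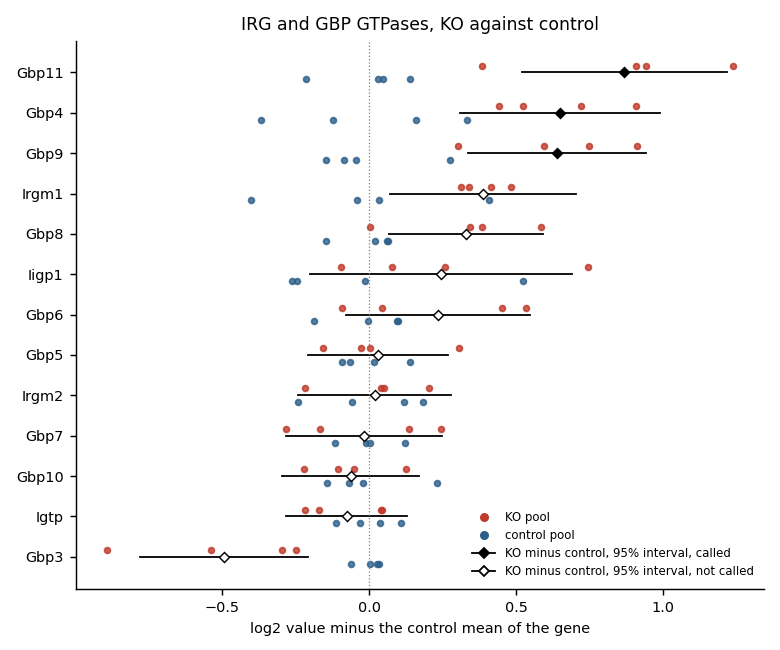
The 13 measured IRG and GBP GTPases are plotted as log2 values minus the control mean, KO pools in red and control pools in blue, with KO minus control and its 95% interval. Gbp11, Gbp4 and Gbp9 are the called rises, and Gbp3 lies at the other end at -0.49 without a call.

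Across 118 further genes of the pathway, from lists written beside the 37, 6 rose and 6 fell, with a median of -0.01. In the list of kinases, STATs and regulatory factors, 1 of 9 fell (Tyk2) and 1 rose (22.2% called, beside 3.59% of all genes). The rise was that of Stat4, which carries type I interferon and interleukin-12 signals in T, NK and other cells, at 8.46 ± 0.24 against 7.52 ± 0.19 (0.93, SE 0.13; limma, adjusted p = 0.00300). Like Ifngr1 it was highest in KO pools 1 and 2, at 8.70 and 8.57. The rise was 0.66 in the T-adjusted fit (adjusted p = 0.0413) and 0.76 without these pools (adjusted p = 0.0443). The part of T and NK cell RNA in the rises of Stat4 and Ifngr1 was not tested beyond these fits. Of 12 negative regulators, 0 were called by limma, 3 with an unadjusted p under 0.05 (15.3% of all genes).

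**Figure D5:**
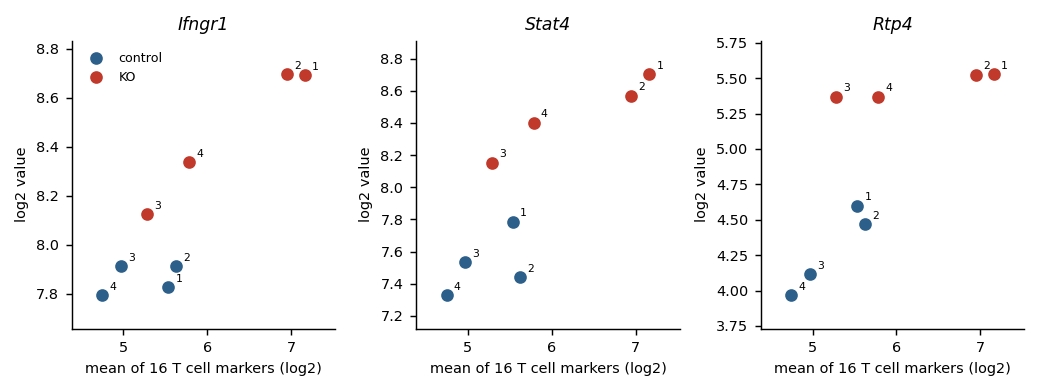
Log2 values of Ifngr1, Stat4 and Rtp4 are plotted against the mean of 16 T cell markers on the same array, control pools in blue and KO pools in red, numbered by pool. KO pools 1 and 2 stand highest in marker mean (7.16 and 6.95) and also in Ifngr1, Stat4 and Rtp4, where the KO pools of Rtp4 lie between 5.37 and 5.53.

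Among 21 interferon ligand and lambda receptor genes, 0 rose and 1 fell (4.76% called, beside 3.59% of all genes). Ifng stood at 2.84 ± 0.29 in KO and 2.70 ± 0.20 in control, and Ifnb1 at 2.42 ± 0.02 and 2.49 ± 0.16. These means lie under every array's median (3.68 to 3.74), so neither gene is shown to be above background. Ifnk, a keratinocyte interferon, was the 1 that fell, at 3.61 against 4.11 (-0.50, SE 0.10; limma, adjusted p = 0.0187), a dim gene in both groups. Omission of control pool 2 or of control pool 3 ended the call (highest adjusted p of its alternatives 0.0768). Ifng and Ifnb1 were chosen after their values were seen.

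Of 54 further interferon-stimulated genes, 2 rose and 3 fell (9.26% called, beside 3.59% of all genes), with a median of -0.03. Ms4a4c, a tetraspanning membrane gene of the Ms4a cluster, fell by 1.35 (SE 0.18; limma, adjusted p = 0.00218), from 7.31 ± 0.38 to 5.95 ± 0.24. Ly6e, a lipid-anchored membrane protein that modulates viral entry, fell by 0.52 (SE 0.13, adjusted p = 0.0467), and Pnpt1, a mitochondrial RNA exonuclease, by 0.41 (SE 0.08, adjusted p = 0.0228). Slfn5, a schlafen gene, rose by 0.65 (SE 0.11, adjusted p = 0.00937) and Lgals3bp, a secreted glycoprotein, by 0.51 (SE 0.11, adjusted p = 0.0308). The calls of Ms4a4c and Slfn5 held in 21 of 22 alternatives, being lost without moderation of the variance (adjusted p up to 0.0760). The call of Ly6e ended on omission of each pool except KO pool 1. That of Lgals3bp ended on omission of KO pool 1 or 2 or of control pool 2, 3 or 4, and that of Pnpt1 on omission of KO pool 2 or of control pool 1, 3 or 4. The T-adjusted fit and the replicate block ended the calls of Ly6e, Lgals3bp and Pnpt1, and omission of KO pools 1 and 2 together ended those of Lgals3bp and Pnpt1. Over all alternatives adjusted p reached 0.171 for Ly6e, 0.235 for Lgals3bp and 0.0994 for Pnpt1.

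In the antigen processing list, 1 of 12 was called (8.33%, beside 3.59% of all genes). Of the 12, 6 had positive and 6 negative differences, with a median of -0.03. KO and control values did not overlap for 4 of them, 2 higher and 2 lower (33.3%, beside 10.5% of all genes). Ciita, the class II transactivator that interferon gamma induces in many cells and B cells express by default, stood at 6.60, 6.70, 6.55 and 6.48 in the KO pools and at 7.08, 7.52, 7.37 and 7.27 in the control pools. The groups did not overlap, and the fall was 0.73 (SE 0.10; limma, adjusted p = 0.00291). It was called in all 22 alternatives (adjusted p up to 0.0385). The immunoproteasome genes Psmb8 and Psmb9 differed by -0.07 each, and Tap1 and Tap2, the peptide transporter, by -0.20 and -0.30. Tapbp and B2m went the other way, by 0.24 and 0.09, and were the genes that lay higher without overlap. The genes named here beside Ciita were chosen after their values were seen, and none of them was called.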

How the data were processed

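Peritoneal B-1a cells of 4 KO and 4 control pools were profiled on Affymetrix arrays. The authors deposited log2 values for 41345 probe sets, made with RMA in R 3.2.2, per the submitters' processing notes. RMA corrects background, sets arrays to 1 distribution and summarises probes, so differences are relative to the other genes. The array annotation they used is not named in the sources here. Array medians lay between 3.68 and 3.74. The number of arrays limits the precision. Whether pools were separate litters is not stated, so p-values measure the spread between these pools.

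Of 25335 annotated probe sets, 23521 had 1 symbol and gave 22180 genes (highest mean per gene). Symbols of 1814 probe sets with several were not used. KO was compared with control with limma 3.58.1 in R 4.3.3 (lmFit, eBayes, two-sided, Benjamini-Hochberg), and the fit was tested on simulated data. Members and lists were chosen with earlier results of these data known, so no list was tested. Named were all members, called genes of the other lists (at most 6 each) and the JAK and STAT genes. Alternatives changed the probe set, genes tested, scaling, prior, weights, threshold, replicate block, T cell marker covariate and pools.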

Additional observations from a re-analysis of the deposited data

Results flagged for a closer look

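In 106 groups of 4 pools checked, 3 held a pool far from the others, where chance alone flags about 1 in 20 groups. For Isg15, KO pool 4 stood at 4.78, with the other KO pools between 3.94 and 4.03. For Ifngr2, control pool 1 stood at 7.94, with the others between 8.19 and 8.24. For Adar, control pool 1 stood at 6.62, with the others at 6.82.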

How the results depend on the processing

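Results were recomputed under 22 alternatives, 8 of them leaving out 1 pool (21 for the dim genes Gbp11, Ifit2, Mx1, Mx2 and Rsad2, which the test of genes above the median mean leaves out). The fall of Paxip1 and the calls of Rtp4, Tyk2 and Ciita held in all 22. Leaving out 1 pool gave 479 to 758 called genes, 1 to 2 rises and 2 to 3 falls among the 37, 3 to 5 rises and 3 to 7 falls among the 118 other pathway genes, a median of the 37 between 0.045 and 0.105, and a Paxip1 difference between -2.81 and -2.40. The main counts were 797 genes, 2 rises and 2 falls, and 6 rises and 6 falls. With the T cell marker mean added to the fit they were 297, 1 and 0, and 3 rises with 6 falls. Without KO pools 1 and 2 they were 320, 2 and 0, and 2 rises with 6 falls, and the median was 0.06. Without moderation of the variance they were 303, 1 and 0, and 0 and 3. At adjusted p under 0.10 they were 1202 genes, 4 rises of the 37 and 10 falls of the 118, and at 0.01 they were 311, 1 and 1, and 2 and 3. Testing every probe set left 1 rise of the 37, and 3 rises and 3 falls of the 118. Testing only genes above the median mean, which leaves out Ifit2, Mx1, Mx2 and Rsad2, gave 4 rises and 3 falls among the other members. A trend with a robust prior gave 4 rises and 3 falls of the 37. Apart from the fits with fewer genes, fewer arrays or another threshold, the cause was not tested.

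The labels use the same pool numbers in both groups and do not state whether same-numbered pools shared a batch. Deviations of same-numbered pools correlated at 0.107, 0.0449, 0.0449 and 0.0363, and those of the other pairs at -0.117 to 0.104. KO pools 1 and 2 correlated best with the control pool of their own number. KO pool 3 correlated best with control pool 4, and KO pool 4 with control pool 3. With the replicate block 666 genes were called, 2 members rose and 2 fell, 4 and 5 of the other pathway genes rose and fell, and Paxip1 differed by -2.67.

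Among genes without a call and near 0, the sign turned as follows, and the cause was not tested. With the mean of all probe sets the difference was Ifi35 -0.12. With the probe set of largest spread the difference was Ifi35 -0.26. With the T cell marker mean in the fit the differences were Ifit2 -0.23, Ifngr2 0.17, Mx2 0.28, Rsad2 -0.0089, Usp18 -0.13 and Zbp1 -0.0028. Without KO pools 1 and 2 the differences were Ifit2 -0.16, Ifngr2 0.085, Irf9 0.027, Mx2 0.26, Rsad2 -0.0087 and Usp18 -0.034. Leaving out 1 pool put Bst2 between -0.061 and 0.11, Eif2ak2 between -0.034 and 0.11, Ifi35 between -0.0036 and 0.050, Ifit2 between -0.011 and 0.40, Ifngr2 between -0.14 and 0.018, Irf9 between -0.14 and 0.059, Mx1 between -0.083 and 0.036, Mx2 between -0.23 and 0.088, Oas3 between -0.043 and 0.046 and Trim30a between -0.11 and 0.053.
Dim genes and 4 arrays per group limit what can be seen of low values such as Mx1, Mx2 and Rsad2.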
